A study of Mus musculus with 2 samples.

Results

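The 10 genes described here encode ligands and receptors of the fibroblast growth factor (FGF) and platelet-derived growth factor (PDGF) families, and were taken by their symbols from the 32285 genes counted in each library. They are the ligands Fgf2, Fgf7, Fgf10, Pdgfa and Pdgfb and the receptors Fgfr1, Fgfr2, Fgfr4, Pdgfra and Pdgfrb. The cells came from digested lungs of wild type C57BL/6 mice aged 3 months, and were sorted live by their own emission at 455 nm (UV-positive cells, which contain retinoids). The mice were male. They gave 2 single-cell libraries of 1 condition, called library 1 and library 2, with no engineered allele and no treatment. How many mice each library held is not given in the sources used here. With the library in the model, p-values rest on a spread estimated over all groups and both libraries together, with information shared between genes. It is not the variation of the single difference tested between the 2 libraries, and it may be technical.

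Cells with at least 200 genes and at most 10% mitochondrial transcripts were kept, which left 9634 cells in library 1 and 9988 in library 2. Groups were set by summed counts of unique molecular identifiers (UMIs, 1 per captured transcript) of marker genes that are not among the 10. A cell was stromal with at least 3 UMIs of Col1a2, Mfap4 and Tcf21 together, endothelial by Cdh5, Pecam1 and Egfl7, epithelial by Epcam, Cdh1 and Lamp3, and immune by Ptprc, Laptm5 and Cd52, and it was used where exactly 1 of these held. Stromal cells without a UMI of Dcn were called alveolar (5776 and 5538 cells in libraries 1 and 2) and those with at least 3 were called adventitial (1016 and 996). There were 56 and 366 endothelial, 930 and 103 epithelial, and 265 and 334 immune cells. The median depth per cell was 4480 and 7578 UMIs, and 23 barcodes were shared between the libraries. The endothelial cells of library 1 held 121510 UMIs in all, so that 3 UMIs made 24.7 CPM there (UMIs per 1000000 UMIs of the sum), against 1.57 CPM in library 2.

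Markers that the rules did not use were compared with the group names. The alveolar fibroblast genes Npnt, Limch1, Slc7a10, Ces1d and Col13a1 summed to 4713 and 5619 CPM in the alveolar cells and to 2234 and 3737 CPM in the adventitial cells. The adventitial fibroblast genes Pi16, Col14a1, Mfap5, Dpt and Serpinf1 summed to 2058 and 1843 CPM in the adventitial cells and to 831 and 910 CPM in the alveolar cells. Both lists were thus present in both groups, with the order of the names. The endothelial genes Plvap, Cldn5, Cd93, Tek and Kdr summed to 8485 and 7506 CPM in the endothelial cells and to at most 30.9 CPM in the other groups. The surfactant and keratin list of the epithelial cells (254200 and 207100 CPM) was also found at 104 to 516 CPM in the other 4 groups.

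FGF and PDGF ligands bind receptor tyrosine kinases on neighbouring cells. In the lung, Fgf7 and Fgf10 are known as mesenchymal ligands of an epithelial form of Fgfr2, and Fgf2 signals through several FGF receptors. Pdgfra and Pdgfrb are the receptors of PDGF chains, Pdgfra marking fibroblasts and Pdgfrb pericytes and other mural cells, and Pdgfb from endothelial cells is known to recruit pericytes.

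The 10 genes fell into distinct patterns over the 5 groups. Fgf2, Fgf7, Fgf10, Fgfr1, Fgfr4 and Pdgfra had their highest level in the stromal cells, Fgfr2 in the epithelial cells and Pdgfb in the endothelial cells of both libraries. Pdgfa was spread over the epithelial and stromal cells and, in library 2, the endothelial cells. Pdgfrb was highest in the adventitial cells. Between alveolar and adventitial cells Fgfr4, Pdgfrb and Pdgfa passed the test, 3 of the 10 beside 8.80% of all 13340 genes tested. The libraries were made from the 3' ends of transcripts, so a level is a CPM of summed UMIs that is compared within a gene and not between genes.

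**Figure D1:**
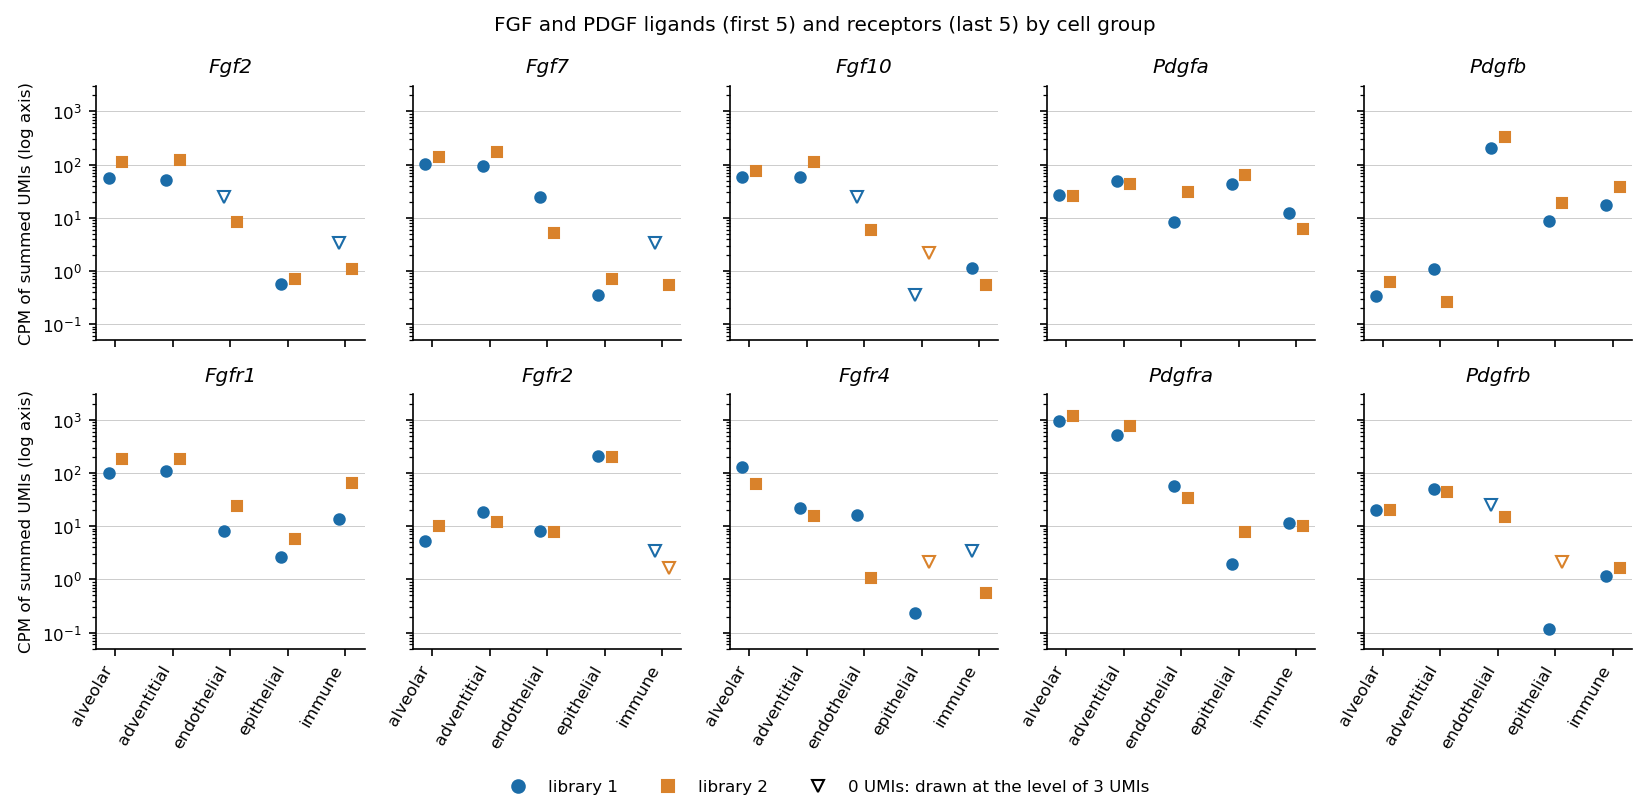
Level of each gene in CPM of summed UMIs (vertical log axis) in the 5 cell groups (horizontal axis), circles for library 1 and squares for library 2; an open triangle marks 0 UMIs and is drawn at the level that 3 UMIs would make. Pdgfb stood highest in endothelial cells (206 and 327 CPM), Fgfr2 in epithelial cells (213 and 198 CPM), and Pdgfra in alveolar cells (947 and 1204 CPM).

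Fgf7 (ENSMUSG00000027208, chr2:126034658-126091185, plus strand, RefSeq positions on GRCm38.p6 here and below) and Fgf10 (ENSMUSG00000021732, chr13:118714699-118792573, plus strand) are paracrine ligands of the stroma. Fgf7 reached 102 and 138 CPM in the alveolar cells of libraries 1 and 2 and 94.1 and 169 CPM in the adventitial cells. Fgf10 reached 59.5 and 76.4 CPM in the alveolar cells and 59.5 and 114 CPM in the adventitial cells. Library 2 was the higher for both genes in both groups, and the ranges of the groups overlapped. In the epithelial cells Fgf7 had 3 and 1 UMIs and Fgf10 had 0 in both libraries. With 3 UMIs as the floor in each library, Fgf10 was at least 35.6-fold higher in alveolar and at least 53.0-fold higher in adventitial than in epithelial cells. In immune cells Fgf7 had 0 and 1 UMIs, and Fgf10 had 1 in each library. The endothelial cells held 3 and 10 UMIs of Fgf7 (24.7 and 5.24 CPM) and 0 and 11 UMIs of Fgf10 (0 and 5.76 CPM).

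The window around the start of these ligands is shown because they are the stromal ligands of the pair with Fgfr2, and that of Fgfr4 because it differed most between the stromal groups. RefSeq windows of 300 bases (250 before a start and 50 after it, GRCm38.p6) were given for 7 of the 10 genes and were searched on both strands for TATAAA, for the GC box GGGCGG and for the nuclear receptor motif AGGTCA, whose matches do not overlap and are in capitals. The 3' libraries do not show which start was used.
Fgf7, chr2:126034408-126034707, plus strand: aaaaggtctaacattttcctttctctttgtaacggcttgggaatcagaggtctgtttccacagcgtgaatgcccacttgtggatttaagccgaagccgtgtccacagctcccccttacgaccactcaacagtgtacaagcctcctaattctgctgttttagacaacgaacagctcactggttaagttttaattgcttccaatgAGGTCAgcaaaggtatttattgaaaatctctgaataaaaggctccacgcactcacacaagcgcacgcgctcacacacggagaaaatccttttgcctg
Fgf10, chr13:118714449-118714748, plus strand: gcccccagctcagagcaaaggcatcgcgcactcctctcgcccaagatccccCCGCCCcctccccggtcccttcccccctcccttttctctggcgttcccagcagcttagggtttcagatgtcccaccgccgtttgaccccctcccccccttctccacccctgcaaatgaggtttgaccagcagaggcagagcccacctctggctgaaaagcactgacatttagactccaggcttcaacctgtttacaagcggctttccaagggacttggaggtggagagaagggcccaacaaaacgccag
Fgfr4, chr13:55152568-55152867, plus strand: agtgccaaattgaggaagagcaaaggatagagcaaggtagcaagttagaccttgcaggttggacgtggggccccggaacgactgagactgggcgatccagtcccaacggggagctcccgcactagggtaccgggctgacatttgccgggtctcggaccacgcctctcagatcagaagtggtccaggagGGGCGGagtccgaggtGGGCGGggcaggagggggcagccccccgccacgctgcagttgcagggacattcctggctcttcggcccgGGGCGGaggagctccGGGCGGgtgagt
The Fgf7 window held 1 AGGTCA, which 16.3% of all 32851 such windows held, and the Fgfr4 window held 4 GGGCGG, which 35.7% held at least once. The Fgf10 window held 1 GC box on the minus strand. TATAAA, found in 13.6% of all windows, was in none of the 3.

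Fgf2 (ENSMUSG00000037225, chr3:37348477-37410106, plus strand), a ligand without a classical signal peptide, was also stromal. It reached 54.9 and 112 CPM in alveolar cells, 50.3 and 123 CPM in adventitial cells, and 0 and 8.39 CPM in endothelial cells. The difference between the libraries was larger than that between the stromal groups, since over all stromal cells library 2 had 2.13 times the level of library 1. Fgf2 lies over the antisense gene Nudt6 and Fgf7 over Fam227b on the other strand. Whether the counting used strand is not given in the sources used here.

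Pdgfa (ENSMUSG00000025856, chr5:138976014-139000792, minus strand), the chain that binds Pdgfra, had 43.1 and 64.5 CPM in epithelial cells. The adventitial cells had 49.97 and 44.0 CPM and the alveolar cells with 26.6 and 25.3 CPM. In library 1 the adventitial value was above the epithelial one and in library 2 below it. Endothelial cells held 8.23 and 30.9 CPM (1 and 59 UMIs), and immune cells 12.5 and 6.07 CPM (11 UMIs in each library). In the fitted levels, where the TMM factors of epithelial sums were 0.697 and 0.784 against 1.005 and 1.121 of adventitial sums, epithelial was above adventitial (adventitial minus epithelial log2 fold change -0.66, SE 0.24, adjusted p = 0.0318, edgeR quasi-likelihood test). This call was lost with DESeq2 (adjusted p = 0.153) and without the library in the model (0.188). Adventitial was above alveolar (alveolar minus adventitial -0.88, SE 0.23, adjusted p = 0.0178), a call also lost with DESeq2 (0.278) and without the library in the model (0.407). Alveolar and endothelial cells did not differ beyond the spread (0.05, SE 0.33, adjusted p = 0.938). Endothelial was above immune in the fit (1.32, SE 0.46, adjusted p = 0.0311), a call that was lost with RLE size factors (0.0569) and with DESeq2 (0.206). The libraries went opposite ways here, with log2 ratios of -1.32 in library 1, from 1 endothelial UMI, and 1.95 in library 2.

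Pdgfb (ENSMUSG00000000489, chr15:79995865-80024614, minus strand), the chain that binds both PDGF receptors, was the endothelial member. It reached 206 and 327 CPM in endothelial cells (25 and 624 UMIs), 17.1 and 38.6 CPM in immune cells, and 8.79 and 18.6 CPM in epithelial cells. The stromal groups lay at 0.259 to 1.11 CPM, and all 7 adventitial UMIs of library 1 stood in 1 cell. Endothelial cells exceeded immune cells (log2 fold change 2.74, SE 0.31, adjusted p = 1.22e-06) and epithelial cells (3.56, SE 0.32, adjusted p = 5.44e-08). Immune and epithelial cells did not differ beyond the spread (epithelial minus immune -0.82, SE 0.35, adjusted p = 0.0627). After each cell was thinned to 2000 UMIs, 29.6% (exact 95% interval 13.8 to 50.2) and 45.3% (39.7 to 50.9) of endothelial cells held a Pdgfb UMI, against 0.0198% and 0.146% of alveolar cells. Unthinned, these shares were 32.1% and 59.8% at medians of 1947 and 4147 UMIs, and 0.139% and 0.397% at medians of 3960 and 6548 UMIs. Intervals for shares cover counting error only.

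The endothelial cells were also divided, after their values were seen and without a test, by the capillary genes Car4 and Ednrb. Cells with at least 2 UMIs of these (13 and 123) held Pdgfb at 378 CPM (exact Poisson 95% interval 201 to 646) and 391 CPM (350 to 435). The other endothelial cells (43 and 243) held 138 CPM (71.2 to 241) and 276 CPM (246 to 310). The level was thus higher in the Car4 and Ednrb cells of both libraries. Here and below, Poisson intervals cover counting error within 1 library only, not the spread between cells, and they give no test.

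Among the receptors, Fgfr1 (ENSMUSG00000031565, chr8:25518759-25575718, plus strand), a broad FGF receptor, had 97.9 and 186 CPM in alveolar and 108 and 184 CPM in adventitial cells. It had 13.7 and 66.2 CPM in immune cells, 8.23 and 23.6 CPM in endothelial cells, and 2.66 and 5.73 CPM in epithelial cells. Alveolar cells exceeded immune cells (log2 fold change 1.58, SE 0.26, adjusted p = 4.95e-05). Immune cells exceeded endothelial cells (endothelial minus immune -1.64, SE 0.36, adjusted p = 0.00147), and endothelial exceeded epithelial cells (1.32, SE 0.44, adjusted p = 0.0234). Without the library in the model these last calls were lost (adjusted p = 0.130 and 0.0920), and with DESeq2 that between endothelial and epithelial cells was (0.108). Only 8 of 265 and 47 of 334 immune cells held a UMI of Fgfr1. In a division chosen after the values were seen, the 6 and 11 immune cells with at least 2 UMIs of Flt3, a receptor of dendritic cell development, had 147 CPM (interval 47.8 to 343) and 226 CPM (144 to 336) of Fgfr1. The other immune cells had 8.28 CPM (3.33 to 17.1) and 56.3 CPM (45.6 to 68.7). Likewise 9 of the 11 Pdgfa UMIs of immune cells, in each library, stood in the 43 and 22 cells with at least 2 UMIs of the macrophage complement gene C1qa.

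Fgfr2 (ENSMUSG00000030849, chr7:130162451-130266808, minus strand), whose epithelial form binds Fgf7 and Fgf10, had 213 and 198 CPM in epithelial cells. Adventitial cells held 18.3 and 11.9 CPM, alveolar cells 5.35 and 10.2 CPM, endothelial cells 8.23 and 7.86 CPM, and immune cells 0 UMIs in both libraries. Epithelial cells exceeded adventitial cells (adventitial minus epithelial log2 fold change -4.32, SE 0.30, adjusted p = 1.93e-09) and were at least 62.4-fold above immune cells against the floor of 3 UMIs. After thinning, 33.2% (30.2 to 36.4) and 35.9% (26.7 to 46.0) of epithelial cells held a Fgfr2 UMI, and 0 of 186 and 0 of 310 immune cells, which allows up to 1.96% and 1.18%. Before thinning it was 80.1% and 86.4% of epithelial cells, at medians of 9329 and 13627 UMIs. Gene counts do not tell the epithelial from the mesenchymal form of Fgfr2. The same epithelial cells held 3 and 1 UMIs of Fgf7 and 0 of Fgf10. They also held the ligand Fgf1, at a mean of 76.9 CPM over the 2 libraries. Which ligands act on Fgfr2 here was not tested.

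Fgfr4 (ENSMUSG00000005320, chr13:55152818-55168759, plus strand), an FGF receptor best known as a partner of Klb in bile acid control, had 129 and 61.0 CPM in alveolar cells and 22.0 and 15.4 CPM in adventitial cells. Outside the stroma it had at most 2 UMIs in any group and library, which made 16.5 CPM in the endothelial cells of library 1. Over all stromal cells library 2 had 0.475 times the Fgfr4 level of library 1 and 1.86 times the Fgfr1 level, so the libraries differed in opposite directions for the pair. The groups did not overlap, the lowest alveolar value being 61.0 CPM and the highest adventitial value 22.0 CPM.

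Pdgfra (ENSMUSG00000029231, chr5:75151322-75198206, plus strand), the fibroblast receptor of PDGF chains, had 947 and 1204 CPM in alveolar cells and 511 and 764 CPM in adventitial cells. Endothelial cells had 57.6 and 33.5 CPM, immune cells 11.4 and 9.93 CPM, and epithelial cells 1.97 and 7.88 CPM. After thinning, 79.7% and 86.8% of alveolar and 61.3% and 69.2% of adventitial cells held a Pdgfra UMI, against 3.70% and 3.14% of endothelial cells. Before thinning the shares were 90.5% and 98.4% of alveolar, 87.8% and 98.2% of adventitial and 3.57% and 9.56% of endothelial cells. In the endothelial cells the 3 stromal rule genes summed to 98.8 and 66.5 CPM, against 3963 to 4893 CPM in the stromal groups. The rules allow an endothelial cell fewer than 3 UMIs of these genes, so they partly set this gap. Outside the rules, the endothelial level was 9.0% and 1.94% of that of all stromal cells for Col1a1. It was 5.39% and 1.52% for Col3a1, 6.42% and 4.45% for Inmt, and 6.85% and 3.05% for Pdgfra. In endothelial cells without a UMI of any other class, Pdgfra had 0 UMIs in library 1 and 13.9 CPM in library 2. What part free RNA or barcodes with more than 1 cell had in these values was not tested.

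Pdgfrb (ENSMUSG00000024620, chr18:61045127-61085067, plus strand), the receptor of mural cells, had 49.8 and 43.3 CPM in adventitial cells and 20.02 and 20.2 CPM in alveolar cells. The endothelial cells had 0 UMIs in library 1 and 14.7 CPM in library 2. Immune cells had 1 and 3 UMIs and epithelial cells 1 and 0. Adventitial cells exceeded endothelial cells (log2 fold change 1.96, SE 0.35, adjusted p = 0.000224, and 0.0513 with classes set at 5 marker UMIs), while alveolar and endothelial cells did not differ beyond the spread (0.73, SE 0.36, adjusted p = 0.137). In the endothelial cells the pericyte genes Cspg4, Notch3, Cox4i2, Higd1b and Lamc3 summed to 0 and 78.6 CPM. Without the cells that held a UMI of Cspg4, Cox4i2, Higd1b or Myh11 the endothelial level was 0 and 2.07 CPM and alveolar exceeded endothelial cells (3.44, SE 0.56, adjusted p = 6.55e-05).

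The alveolar and adventitial cells were compared to ask which ligands and receptors differ between these stromal cells of the same sort. Fgfr4 was higher in alveolar cells by 2.23 on the log2 scale (SE 0.22, adjusted p = 1.76e-06), which is 4.71-fold. Pdgfrb was lower by 1.23 (log2 fold change -1.23, SE 0.21, adjusted p = 0.000716) and Pdgfa was lower as well (-0.88, SE 0.23, adjusted p = 0.0178). Of the 10 genes 1 was higher and 2 were lower, beside 2.99% and 5.81% of all genes, and all 10 had passed the filter on low counts, which a gene passes through the group where it is high. The direction of the 3 was the same in both libraries, which is no further evidence because they were called on these same libraries. Their log2 ratios were 2.47 and 2.00 for Fgfr4, -1.39 and -1.08 for Pdgfrb and -0.99 and -0.77 for Pdgfa. The calls for Pdgfrb and Pdgfa were lost without the library in the model (adjusted p = 0.122 and 0.407) and with DESeq2 (0.05 and 0.278), while that for Fgfr4 held in both (0.0301 and 0.000445).

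Pdgfra missed the threshold at 0.74 (SE 0.25, adjusted p = 0.0777), although its groups did not overlap, with at least 947 CPM in alveolar and at most 764 CPM in adventitial cells. Fgfr2 missed it at -0.94 (SE 0.29, adjusted p = 0.0528), and its log2 ratios were -1.84 in library 1 and -0.20 in library 2, so that library 1 set most of this value. Fgf10 (-0.32, SE 0.19, adjusted p = 0.422), Fgf7 (-0.13, SE 0.20, adjusted p = 0.829), Fgfr1 (-0.09, SE 0.21, adjusted p = 0.889), Fgf2 (-0.04, SE 0.18, adjusted p = 0.961) and Pdgfb (-0.17, SE 0.63, adjusted p = 0.940) were not told apart. The log2 ratio of Pdgfb was -1.63 in library 1 and 1.12 in library 2. For Fgf10 the library 1 levels were both 59.5 CPM, and the lower alveolar value came from library 2. The median log2 fold change was -0.15 over the 10 genes and 0.03 over all genes tested.

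**Figure D2:**
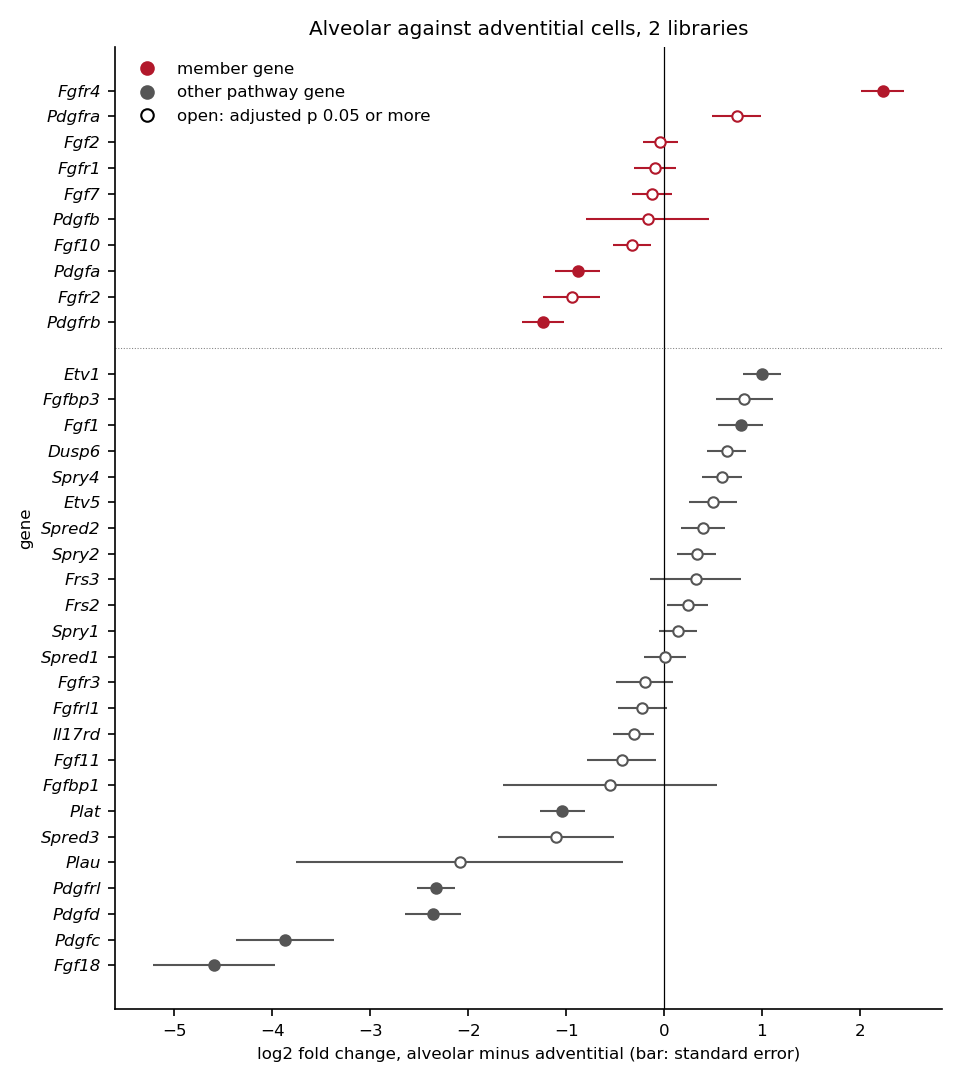
Log2 fold change of alveolar minus adventitial cells (horizontal axis, bars are standard errors of the edgeR fit on 2 libraries) for the 10 genes in red and for 24 other tested genes of the pathways in grey; filled points passed an adjusted p of 0.05. Fgfr4 lay farthest to the right at 2.23, and Pdgfrb (-1.23) and Pdgfa (-0.88) were the filled red points to the left of 0.

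The stromal cells were also read along Dcn, in cells with 0, 1 to 2, 3 to 9 and 10 or more UMIs. Fgfr4 went from 129 over 71.6 and 35.3 to 13.9 CPM in library 1 and from 61.0 over 34.6 and 20.5 to 12.3 CPM in library 2. Pdgfra went from 947 to 483 CPM and from 1204 to 709 CPM, with each step lower than the one before. Pdgfrb went the other way, from 20.02 to 59.6 CPM and from 20.2 to 48.4 CPM, and so did Pdgfa, from 26.6 to 53.2 CPM and from 25.3 to 44.8 CPM. The order of the 4 bins was the same in both libraries for these 4 genes. Fgf10 was at 59.5, 66.6, 62.3 and 57.8 CPM in library 1 and at 76.4, 94.9, 114 and 114 CPM in library 2, where only the latter had a slope. Deeper cells hold more Dcn UMIs, so depth moves with the bins. After thinning to 2000 UMIs the alveolar minus adventitial log2 fold changes were 2.41 for Fgfr4, 0.79 for Pdgfra, -1.08 for Pdgfrb and -0.86 for Pdgfa. The groups were kept as set before thinning, so these values do not take depth out of the division by Dcn.

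**Figure D3:**
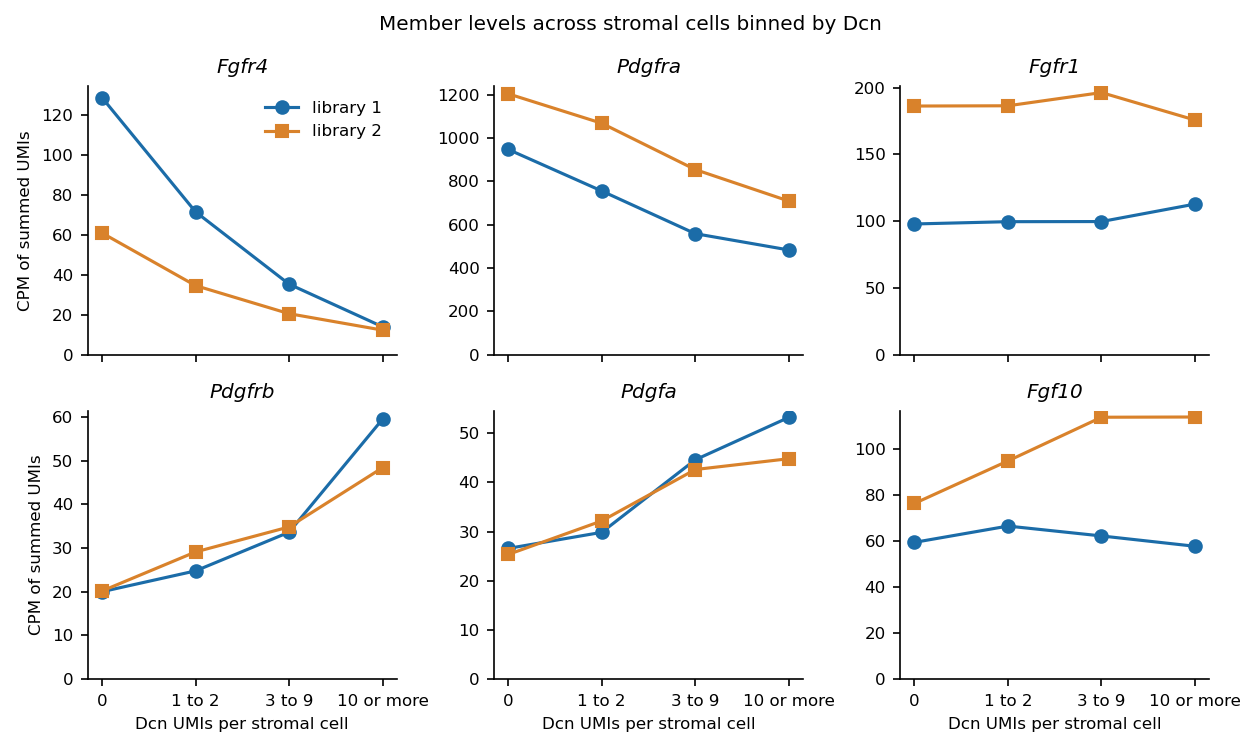
CPM of summed UMIs (vertical axes from 0) in stromal cells binned by their Dcn UMIs (horizontal axis), circles for library 1 and squares for library 2. Fgfr4 and Pdgfra stepped down and Pdgfrb and Pdgfa stepped up with Dcn in both libraries, while Fgfr1 stayed between 97.9 and 113 CPM in library 1 and between 176 and 196 CPM in library 2.

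Against the other classes the 10 genes were read by number. Of the 10, 6 were higher and 1 (Pdgfb) was lower in alveolar than in endothelial cells, beside 33.2% of all genes called in either direction (18.3% higher and 14.9% lower). The alveolar cells had 7 of the 10 higher and 3 lower (Fgfr2, Pdgfb and Pdgfa) than the epithelial cells, beside 51.1% (26.8% and 24.4%), and 9 higher and 1 lower (Pdgfb) than the immune cells, beside 52.5% (28.3% and 24.2%). Among them were the differences of Pdgfb against endothelial cells (-8.83, SE 0.37, adjusted p = 2.19e-12), of Pdgfra against epithelial cells (7.73, SE 0.38, adjusted p = 7.29e-12) and of Fgfr2 against epithelial cells (-5.26, SE 0.31, adjusted p = 1.61e-10). The median over the 10 genes was 3.62, 6.54 and 6.41 against endothelial, epithelial and immune cells, beside 0.18, 0.11 and 0.18 over all genes. The 10 genes were chosen with earlier results of these data known. They also passed the filter on low counts, which a gene passes through the group where it is high. The counts and medians are therefore a description and no evidence about the families.

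The same counts were taken for the other pairs of groups, which share these sums and the limits just given. Adventitial cells had 8 of the 10 genes higher and 1 lower than endothelial cells, beside 33.5% of all genes called (18.9% higher and 14.6% lower). They had 7 higher and 3 lower than epithelial cells, beside 48.4% (25.4% and 23.0%), and 9 higher and 1 lower than immune cells, beside 50.9% (27.2% and 23.7%). Endothelial cells had 8 higher and 2 lower (Fgfr2 and Pdgfa) than epithelial cells, beside 40.3% (19.8% and 20.5%), and 7 higher and 1 lower (Fgfr1) than immune cells, beside 36.3% (18.2% and 18.1%). Many of these endothelial calls rested on few UMIs, and with only cells that held no marker UMI of another class Pdgfra did not differ between endothelial and epithelial cells beyond the spread (0.75, adjusted p = 0.462, against 2.54 and 0.000183). Some called values had opposite signs in libraries 1 and 2. Against epithelial cells the log2 ratios were -4.12 and 2.82 for Fgf2 and -2.10 and 7.88 for Pdgfrb. Against immune cells they were -1.32 and 1.95 for Pdgfa and -4.79 and 2.72 for Pdgfrb. Epithelial cells had 2 higher (Fgfr2 and Pdgfa) and 3 lower (Fgfr1, Pdgfra and Pdgfrb) than immune cells, beside 47.9% (24.7% and 23.2%).

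Of 44 further genes of these pathways, in lists chosen with earlier results of these data known, 24 could be tested. Between alveolar and adventitial cells 2 of the 24 were higher and 5 lower, beside 8.80% of all genes called. The higher ones were Etv1, a transcription factor induced by FGF signals (104 and 114 CPM in alveolar, 46.0 and 61.3 CPM in adventitial cells, log2 fold change 1.0, SE 0.19, adjusted p = 0.00181), and the ligand Fgf1 (6.76 and 8.0 against 3.48 and 4.93 CPM, 0.78, SE 0.23, adjusted p = 0.0430). The lower ones held all 3 of the other PDGF genes. Pdgfc had 0.300 and 0.542 CPM in alveolar and 4.43 and 8.12 CPM in adventitial cells (-3.87, SE 0.50, adjusted p = 5.51e-05), and Pdgfd 2.57 and 2.27 against 14.1 and 10.6 CPM (-2.36, SE 0.29, adjusted p = 4.10e-05). Pdgfrl, a receptor-like relative without a kinase, had 18.3 and 16.4 against 93.9 and 77.6 CPM (-2.33, SE 0.19, adjusted p = 4.78e-07). The ligand Fgf18 (0.0856 and 0.232 against 2.53 and 5.62 CPM, -4.60, SE 0.62, adjusted p = 8.59e-05, from 2 and 9 alveolar UMIs) and Plat, the protease tissue plasminogen activator, which can activate PDGF-C (63.4 and 53.3 against 146 and 91.8 CPM, -1.04, SE 0.23, adjusted p = 0.00590), completed them. The 7 were named because they were called on these same libraries, so that their values did not overlap between the groups is no further evidence.

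Against endothelial cells 5 of the 24 were higher and 4 lower in alveolar cells, beside 33.2% of all genes called in either direction, led by Fgf1 (57.6 and 89.1 CPM in endothelial cells, -3.21, SE 0.24, adjusted p = 4.34e-09), Etv1 (3.62, SE 0.33, adjusted p = 6.37e-08) and Pdgfd (-3.87, SE 0.36, adjusted p = 2.51e-07). Against epithelial cells 8 were higher and 7 lower, beside 51.1%. Etv5, a further FGF-induced factor, had 407 and 299 CPM in epithelial cells (-5.90, SE 0.25, adjusted p = 1.31e-12), Fgf1 had 70.7 and 83.1 CPM there (-3.95, SE 0.21, adjusted p = 1.57e-11), and the secreted FGF carrier Fgfbp1 43.4 and 50.9 CPM (-9.06, SE 0.45, adjusted p = 4.77e-11). Against immune cells 17 were higher and 2 lower, beside 52.5% (28.3% higher and 24.2% lower), led by Etv1 (4.38, SE 0.34, adjusted p = 3.53e-09), the feedback inhibitor Spry1 (3.87, SE 0.31, adjusted p = 5.25e-09) and Plat (5.38, SE 0.55, adjusted p = 1.75e-07). Of the list of 16 adaptors, feedback and target genes 14 could be tested. In alveolar cells 1 of the 14 was higher than in adventitial cells (2.99% of all genes were), 4 were higher and 1 lower than in endothelial cells, 4 higher and 6 lower than in epithelial cells, and 10 higher than in immune cells.

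Pairs of the genes were read in single cells thinned to 2000 UMIs. Pdgfrb was held by 3.70% (3.14 to 4.33) of the alveolar cells with Pdgfra and by 3.80% (2.72 to 5.16) of those without in library 1, and by 3.48% (2.98 to 4.04) and 4.70% (3.27 to 6.50) in library 2. Fgf10 was held by 12.2% and 13.6% of the alveolar cells with Fgf7 and by 11.2% and 13.0% of those without. Fgfr4 was held by 23.8% and 12.3% of the alveolar cells with Fgfr1 and by 22.8% and 13.3% of those without. The intervals overlapped in all of these pairs. Fgfr4 was held by 23.8% (22.5 to 25.1) of the alveolar cells with Pdgfra and 19.7% (17.3 to 22.3) of those without in library 1, where the intervals did not meet, and by 13.0% (12.1 to 14.0) and 12.6% (10.2 to 15.2) in library 2. In adventitial cells it was held by 5.88% (4.15 to 8.05) of those with Pdgfra and 2.33% (1.07 to 4.37) of those without in library 1, and by 3.34% (2.13 to 4.97) and 0.977% (0.202 to 2.83) in library 2. The share was higher in the cells with Pdgfra in both groups and libraries, but the intervals overlapped except in the alveolar cells of library 1. They cover counting error within a library only and give no test.

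Mural cells were not among the 5 groups, and barcodes with at least 3 UMIs of Cspg4, Cox4i2, Higd1b and Myh11 together were read apart after the values had been seen, with no test. There were 9 in library 1 and 295 in library 2, of which 241 met the rules of 2 or more classes. In the 18 of library 2 that met no class rule, Pdgfrb had 1211 CPM (exact Poisson 95% interval 912 to 1576), Pdgfa 440 CPM (269 to 680) and Pdgfra 1 UMI. In the 107 other barcodes of that set Pdgfrb had 23.5 CPM (7.62 to 54.8). Stromal barcodes with the mural markers (7 and 29) had 475 CPM (277 to 761) and 291 CPM (227 to 367) of Pdgfrb, against 25.7 and 24.9 CPM in the other stromal cells. Of the 28 Pdgfrb UMIs of endothelial cells in library 2, 23 stood in the 7 cells with mural markers. Without any cell holding such a UMI, the alveolar minus adventitial log2 fold change of Pdgfrb was -1.30 (SE 0.19, adjusted p = 9.78e-05), against -1.23 with all cells. That exclusion did not use Notch3 or Lamc3. The pericyte list summed to 147 and 40.6 CPM in adventitial cells and to 15.3 and 23.4 CPM in alveolar cells. In adventitial cells it was mostly Lamc3 at 144 and 37.8 CPM, with Higd1b at 0 and 2 UMIs. The part of mural cells in this difference was not tested.

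**Figure D4:**
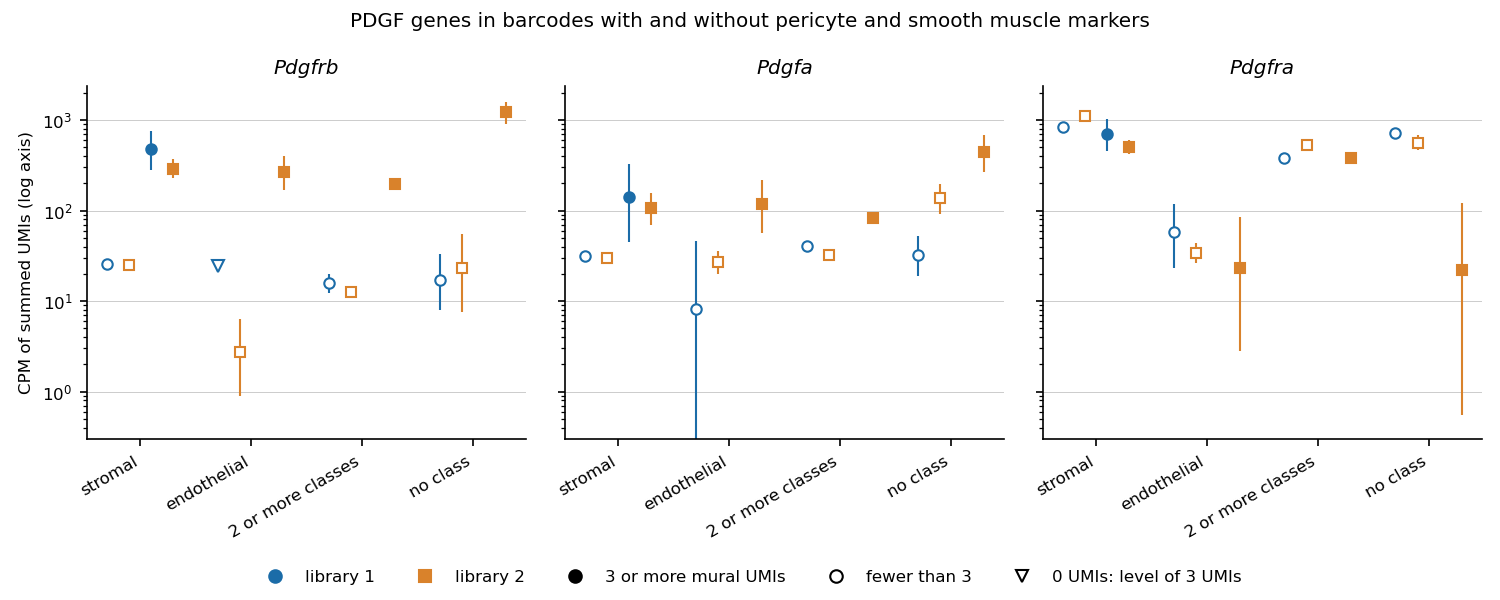
CPM of summed UMIs (vertical log axis) of Pdgfrb, Pdgfa and Pdgfra in barcodes of 4 sets (horizontal axis), filled with at least 3 UMIs of 4 mural markers and open with fewer, circles for library 1 and squares for library 2; bars are exact Poisson 95% intervals of counting error, sets of fewer than 5 barcodes are not drawn, and the triangle marks 0 UMIs. Pdgfrb in the barcodes with mural markers lay between 196 and 1211 CPM, above those without in every set drawn.

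The genes whose profile was most like each of the 10 were sought over the 10 values of 5 groups in 2 libraries, by Pearson correlation of log2(CPM + 1). Groups of 1 library share its depth, so these values are a description. Pdgfra was most like Inmt (r = 0.997) and Itga8 (0.995), Fgf10 like Zfpm2 (0.997) and Jph2 (0.995), Fgf2 like Ccbe1 (0.996) and Tbx5 (0.995), and Fgf7 like Mir100hg (0.994) and Adamts5 (0.993). Fgfr4 was most like Tnc and Adm (0.978 each), Pdgfrb like Snx9 (0.991) and Pofut1 (0.984), and Fgfr1 like Borcs7 (0.971) and Map7d3 (0.968). Pdgfb was most like Adrb1 (0.986) and Dgkz (0.978), Fgfr2 like Bmp1 (0.977) and Me1 (0.976), and Pdgfa like Cables1 (0.953) and Il7 (0.952).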

How the data were processed

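Lung cells of 2 libraries of 1 condition were measured by 10x Genomics 3' single-cell RNA sequencing. The authors deposited raw counts of UMIs per gene and barcode, which per the submitters' processing notes came from Cell Ranger 5.0.1 on mm10. They carry no normalization. Cells were filtered and grouped as given above. Singlets had been gated on scatter by the study, no doublet caller was run here, and barcodes meeting 2 or more class rules (421 and 1632, medians of 10308 and 17434 UMIs) or none (351 and 125) entered no comparison. The members and lists were chosen with earlier results of these data known. UMIs were summed per group and library, giving 10 sums, and fitted with edgeR 4.0.16 in R 4.3.3 (TMM normalization, its standard expression filter, and two-sided quasi-likelihood tests adjusted by Benjamini-Hochberg over all genes tested), with the library as a block because each library gave 1 sum to every group. CPM values do not use the TMM factor. Alternatives included DESeq2 1.42.0. The fit was tested on simulated counts. Other genes were named where called between alveolar and adventitial cells, else by the 3 smallest adjusted p. Smooth muscle, mesothelial and platelet markers summed to at most 180, 6.64 and 469 CPM in the 5 groups. Immune check genes summed to 33620 and 16550 CPM in immune cells, and to 45290 and 38950 CPM in epithelial cells, where Coro1a and Cd53 were at 0. The stromal check genes Col1a1, Col3a1 and Ptgis summed to 2260 to 4655 CPM in the stromal groups and to at most 272 CPM elsewhere.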

Additional observations from a re-analysis of the deposited data

Results flagged for a closer look

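Barcodes that entered no comparison held some of the genes above every group of their library. In the 125 barcodes of library 2 that met no class rule, Pdgfrb had 232.2 CPM (60 UMIs) against at most 43.3 CPM in the 5 groups, and Pdgfa had 189.6 CPM (49 UMIs) against at most 64.5 CPM. In the same barcodes the pericyte, smooth muscle and platelet lists summed to 658, 2275 and 894 CPM, against 38.3, 140 and 95.6 CPM in the corresponding barcodes of library 1. The part of each cell type in the 2 values was not tested. In the 1632 barcodes of library 2 that met 2 or more class rules, Pdgfrb had 45.2 CPM (1351 UMIs), of which 1044 UMIs stood in the 241 barcodes with mural markers. In the 351 barcodes of library 1 without a class, Fgf10 had 61.2 CPM (32 UMIs) against 59.5 CPM in alveolar cells. These values were nearly equal, and their difference was not tested. The stromal cells of library 1 with 1 to 2 Dcn UMIs, which also entered no comparison, had 66.6 CPM.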

How the results depend on the processing

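Of 40 values of the 10 genes in the 4 comparisons of alveolar cells, 30 were called, and 27 of these stayed called in all 13 alternatives with a test. Between alveolar and adventitial cells 1174 genes were called, 613 with DESeq2, 257 without the replicate block and 2854 with only the 2 groups fitted. Counts in the other 3 comparisons stayed within 1.5 times. Among the 40 values, no calls other than those given for Pdgfrb and Pdgfa were lost without the block. With DESeq2 Pdgfa also lost its call against immune cells (adjusted p = 0.0554). The calls not made for Fgfr2 and Pdgfra between alveolar and adventitial cells were made in 6 and 4 alternatives (adjusted p 0.00173 to 0.0491 and 0.00192 to 0.0487), and that for Pdgfrb against endothelial cells in 4 (6.55e-05 to 0.0320). The cause was not tested. Values that changed sign had no call in either setting. They were Fgf2 between alveolar and adventitial cells, at 0.0796 after thinning and at 0.0199 with at least 10 Dcn UMIs, Pdgfb there at 0.0022 with at least 5 marker UMIs, and with the same rule Pdgfa at -0.14 and Pdgfrb at -0.36 between alveolar and endothelial cells. RLE size factors moved the median of all genes in alveolar minus immune cells from 0.18 to 0.04 and no called direction of the 10 genes. Leaving out a library left no residual degrees of freedom, so it gave values and no counts. Of the 40 values 18 moved by more than the spread between libraries without library 2 and 6 without library 1. In library 1 alone alveolar minus endothelial was 2.44 for Fgf7, 3.36 for Fgfr4 and 2.08 for Pdgfa, from 3, 2 and 1 endothelial UMIs, and alveolar minus immune was 2.52 for Fgfr1, against 1.58 in the fit. The 56 endothelial cells of library 1 limit what could be detected there.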
